A study of Mus musculus with 56 samples.

Results

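In mouse bone marrow-derived macrophages (BMDMs), 1083 of 49264 genomic regions with a p65 peak under LPS (2.20%) held a peak in both samples given LPS alone and in neither sample given IL-4 before LPS. They are called lost regions here. The regions were made by merging the overlapping p65 peaks (1 bp or more) of the 4 samples with LPS, and the lost regions were selected on the presence of p65 peaks in these 4 samples, so that their p65 values under LPS describe the choice and are not tested. Of the 49264 regions, 20912 held a p65 peak in both LPS samples without pretreatment, and 18099 held one in all 4 samples (kept regions). Another 1730 regions missed a peak in 1 of the 2 pretreated samples. The reverse set, with a peak in both pretreated samples and in neither sample given LPS alone, was larger and held 7568 regions.

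The cells were wild-type C57BL/6 bone marrow cells from mice of 8 to 12 weeks, differentiated for 6 days in supernatant of L929 cells, which supplies M-CSF. ChIP-seq, in which DNA bound to a protein or histone mark is pulled down with an antibody and sequenced, gave 56 peak lists for 9 antibodies. For p65, RNAPII-pS5, and RNAPII-pS2 there were 2 samples each of untreated cells (ctrl/ctrl), cells treated for 24 hr with IL-4 at 20 ng/ml (IL-4 PT/ctrl), cells treated for 1 hr with LPS at 100 ng/ml (ctrl/LPS), and cells given 24 hr of IL-4 and then 1 hr of LPS (IL-4 PT/LPS). RNAPII-pS5, RNAPII-pS2, PU.1, p300, H3K27Ac, HDAC1, HDAC2, and HDAC3 were also measured without LPS, in 2 untreated samples and 2 samples with 1 hr of IL-4 per antibody. All groups shared the wild-type genotype and the culture. The labels number the samples but do not say that they came from separate mice, so that p-values measure the spread between these samples, and they do not say whether the antibodies of a condition shared 1 batch of chromatin.

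p65 (RelA) is a subunit of NF-κB that is held in the cytoplasm by IκB proteins and enters the nucleus when LPS activates Toll-like receptor 4, where it binds enhancers and promoters of inflammatory genes. IL-4 acts through the transcription factor STAT6 and drives the alternative polarization of macrophages. PU.1 is the lineage-determining factor of macrophages, p300 is a histone acetyltransferase of active enhancers, and H3K27Ac is the mark it leaves. RNAPII-pS5 and RNAPII-pS2 are the forms of RNA polymerase II phosphorylated at initiation and at elongation, respectively.

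To show what the lost regions look like, the central 200 bases around the strongest ctrl/LPS p65 peak are given for 11 of them. They are 8 of the 10 lost regions with the highest p65 score under LPS, and 3 regions near genes of the Toll-like receptor pathway or of alternative activation to which the results return. Capitals mark letters that match 1 of 8 motifs on either strand, lower case marks the rest, and the sequences are the plus strand of RefSeq's GRCm38.p6 (mm10, the build of the peak lists), written 5′ to 3′.
Ier2 (chr8:84663887-84664086): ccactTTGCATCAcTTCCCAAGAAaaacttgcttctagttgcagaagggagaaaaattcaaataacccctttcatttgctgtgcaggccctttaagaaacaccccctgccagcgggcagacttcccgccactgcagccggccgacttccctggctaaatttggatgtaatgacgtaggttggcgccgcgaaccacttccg
Bcl6 (chr16:23981277-23981476): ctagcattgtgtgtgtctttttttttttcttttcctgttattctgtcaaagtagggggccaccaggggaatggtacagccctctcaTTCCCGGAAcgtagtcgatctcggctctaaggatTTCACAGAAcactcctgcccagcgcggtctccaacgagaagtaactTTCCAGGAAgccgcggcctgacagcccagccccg
Cdk14 (chr5:5415502-5415701): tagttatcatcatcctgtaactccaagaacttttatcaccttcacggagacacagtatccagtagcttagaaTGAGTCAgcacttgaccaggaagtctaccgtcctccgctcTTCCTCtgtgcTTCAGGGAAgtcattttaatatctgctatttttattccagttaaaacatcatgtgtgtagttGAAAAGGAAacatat
Irs2 (chr8:11088991-11089190): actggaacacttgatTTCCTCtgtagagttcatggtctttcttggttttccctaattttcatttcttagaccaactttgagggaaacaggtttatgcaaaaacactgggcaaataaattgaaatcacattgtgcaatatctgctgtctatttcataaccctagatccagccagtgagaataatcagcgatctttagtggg
Cd2ap (chr17:42837320-42837519): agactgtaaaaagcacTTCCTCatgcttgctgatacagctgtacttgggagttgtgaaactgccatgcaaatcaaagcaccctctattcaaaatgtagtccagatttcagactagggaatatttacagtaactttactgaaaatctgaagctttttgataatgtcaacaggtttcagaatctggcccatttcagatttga
Rapgef5 (chr12:117472997-117473196): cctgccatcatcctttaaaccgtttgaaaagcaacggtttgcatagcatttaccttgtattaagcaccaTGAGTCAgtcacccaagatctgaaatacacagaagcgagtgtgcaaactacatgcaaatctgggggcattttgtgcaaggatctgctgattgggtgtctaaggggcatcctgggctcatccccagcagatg
Itgal (chr7:127293143-127293342): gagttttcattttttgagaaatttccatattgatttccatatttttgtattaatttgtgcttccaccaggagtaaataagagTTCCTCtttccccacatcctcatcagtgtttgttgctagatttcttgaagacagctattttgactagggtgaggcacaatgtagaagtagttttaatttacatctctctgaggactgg
Bcl11a (chr11:24242961-24243160): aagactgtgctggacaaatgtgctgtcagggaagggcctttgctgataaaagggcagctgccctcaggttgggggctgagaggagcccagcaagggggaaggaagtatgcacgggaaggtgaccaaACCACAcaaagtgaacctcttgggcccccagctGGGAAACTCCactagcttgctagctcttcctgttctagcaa
Irak2 (chr6:113659712-113659911): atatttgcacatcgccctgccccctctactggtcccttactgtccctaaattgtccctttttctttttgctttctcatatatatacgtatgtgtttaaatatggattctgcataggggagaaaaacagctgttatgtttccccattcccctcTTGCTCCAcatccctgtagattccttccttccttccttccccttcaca
Tlr7 (chrX:167302271-167302470): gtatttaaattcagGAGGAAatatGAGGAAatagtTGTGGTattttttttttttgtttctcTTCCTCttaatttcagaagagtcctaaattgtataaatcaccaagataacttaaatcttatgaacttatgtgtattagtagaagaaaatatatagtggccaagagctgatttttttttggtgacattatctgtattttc
Pdcd1lg2 (chr19:29403094-29403293): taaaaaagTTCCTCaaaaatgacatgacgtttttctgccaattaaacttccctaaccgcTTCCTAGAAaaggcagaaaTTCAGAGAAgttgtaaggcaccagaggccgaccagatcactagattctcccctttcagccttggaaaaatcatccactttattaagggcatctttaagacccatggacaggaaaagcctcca

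The motifs were the 10-letter κB consensus, TGANTCA (AP-1), GAGGAA (PU.1), TTGC and CA with 2 bases between them (C/EBP), TTC and GAA with 3 bases between them (STAT), TTC and GAA with 4 bases between them (the wider spacing known for STAT6), GAAA and GAA with 2 bases between them (interferon response), and TGTGGT (RUNX). All were searched on both strands, and matches of different motifs may overlap. Among the 11 windows, a κB match occurred only at Bcl11a (GGGAAACTCC). The window in intron 1 of Bcl6, a transcriptional repressor known to oppose inflammatory genes, held 3 STAT matches (TTCCCGGAA, TTCACAGAA, and TTCCAGGAA), and the window upstream of Ier2 held the STAT6 spacing (TTCCCAAGAA). A match is a description of the letters and not a binding site, and no match says only that these letters were not in the window.

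Over all 1083 lost regions, a κB match was found in 76 windows of 200 bp (7.02%), against 13.9% of the kept regions, 11.2% of the kept regions of middle score, and 11.01% of all 49264 regions. The kept regions of middle score are the 3353 kept regions whose mean ctrl/LPS p65 score lay between the quartiles of the lost regions, a set added after seeing the data because p65 scores of the lost regions were low. Within the lowest decile of regions by score, 33 lost regions (8.38%) and 112 of 1233 kept regions (9.08%) had a κB match, and in the next decile 15 of 253 lost (5.93%) and 172 of 1467 kept regions (11.7%) did. The STAT6 spacing was found at 5.17% of the lost regions, 7.93% of the kept regions of middle score, and 8.26% of all regions. PU.1 matches stood at 38.3% of the lost regions, 35.6% of the kept regions of middle score, and 34.5% of all regions, and STAT matches at 10.9%, 8.68%, and 8.75%, respectively. AP-1 (22.4% against 23.2% of all regions), C/EBP (10.5% against 12.0%), interferon response (10.4% against 11.8%), and RUNX (20.4% against 19.4%) matches differed by less than 2 percentage points from all regions. The median GC content of the windows was 45.5% at lost and 46.5% at kept regions.

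**Figure D1:**
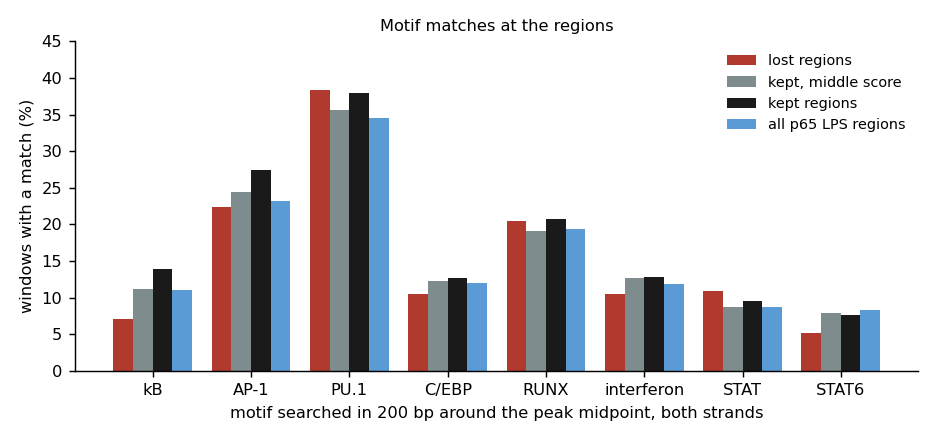
Share of 200 bp windows (y axis, percent) with a match to each of 8 motifs (x axis) at lost regions, kept regions of middle score, kept regions, and all p65 LPS regions. The κB bar of the lost regions (7.02%) is the lowest of the 4 κB bars, and their PU.1 bar (38.3%) is the highest of the 4 PU.1 bars.

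The lost regions were mostly weak p65 peaks. Peak scores are on the peak caller's −log10 scale of significance, on which a weak peak is a low value, and they depend on depth as well as on enrichment. The mean ctrl/LPS score of the lost regions ran from 2.26 to 32.7 with a median of 5.82, whereas the kept regions had a median of 12.8 and reached 248. The median width was 321 bp at lost regions, 503 bp at kept regions, and 444 bp at kept regions of middle score. When the 20912 regions with a peak in both ctrl/LPS samples were divided into deciles by score, 18.8% of the lowest decile and 12.1% of the next were lost, and none of the highest was. The 3 lowest deciles held 821 lost regions (75.8%), and the 3 highest held 8 among 6273 regions.

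**Figure D2:**
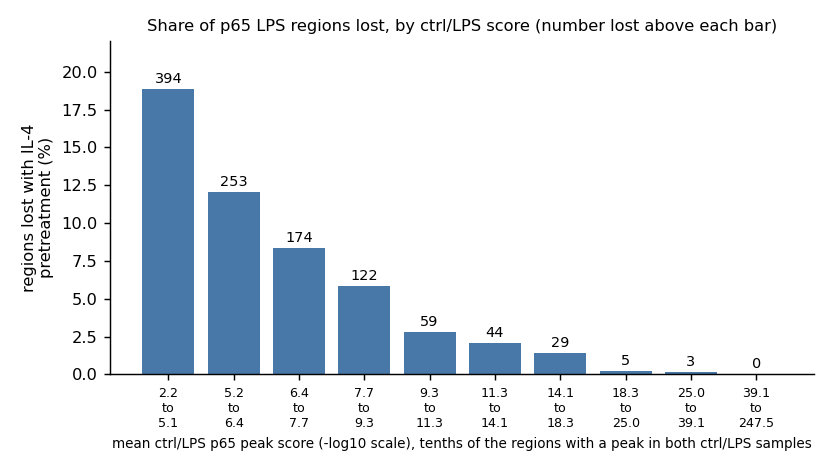
Share of regions lost with IL-4 pretreatment (y axis, percent) in deciles of the 20912 regions by their mean ctrl/LPS p65 peak score (x axis, −log10 scale), with the number of lost regions above each bar. The share falls from 18.8% in the lowest decile to 0 in the highest.

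The choice by presence or absence has a soft edge. The lost region with the lowest score, at chr10:67410797-67411115 nearest to Nrbf2, had p65 scores of 2.23 and 2.28 in ctrl/LPS. Just outside the rule, a region nearest to Plekhb1 (chr7:100661293-100661656) had scores of 10.1 and 15.3 in ctrl/LPS and a peak of 1.40 in 1 IL-4 PT/LPS sample. In the 1730 regions that missed a peak in 1 pretreated sample only, the median score of the peak in the other was 5.61, close to the level of the lost regions in ctrl/LPS. The pretreated samples had more p65 peaks (36738 and 38955) than the samples with LPS alone (26305 and 26820). The nearest p65 peak of the pretreated samples lay at a median of 5237 bp, within 500 bp of 110 lost regions (10.2%), and within 10 kb of 724 (66.9%).

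Of the lost regions, 460 (42.5%) were in introns, 450 (41.6%) were intergenic, and 125 (11.5%) were annotated as promoter-TSS, the surroundings of a transcription start site (TSS). The shares over all 49264 regions were 44.4%, 41.2%, and 10.2%. The median distance to the nearest TSS was 16145 bp, against 18642 bp over all regions. LTR retrotransposons held 103 lost regions (9.51%), against 7.18% of the kept regions and 8.65% of the kept regions of middle score. On the X chromosome, 31 of the 412 regions with a peak in both ctrl/LPS samples were lost (7.52%), and the share on the autosomes ran from 4.11% on chromosome 9 to 6.09% on chromosome 5.

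The lost regions were spread over 999 nearest genes, of which 925 had 1 lost region, 67 had 2, and 7 had 3 or 4. Of the 999 genes, 717 also had a kept region. Regions are named by their nearest gene, which can lie far away. Lrig2 and Rplp1 had 4 lost regions each. Those of Rplp1, which encodes a ribosomal protein, were intergenic and lay within 28.5 kb (chr9:61694160-61722682), 192001 to 220226 bp from its TSS. Bcl6 had 3 lost among 15 regions with a peak in both ctrl/LPS samples, of which 12 were kept. Tlr7, an endosomal receptor for single-stranded RNA, had 3 lost among 4 such regions and none kept. B4galt6, Cdk14, and Dock10 also had 3 lost regions each, of which Dock10 was named after its values were seen.

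The 10 lost regions with the highest p65 scores under LPS included Ier2, an immediate early gene, and Irs2, the adaptor of insulin and IL-4 receptor signaling. At Ier2 (chr8:84663801-84664176, -1134 bp from the TSS), p65 scored 31.4 and 33.9 in ctrl/LPS. At Bcl6 (chr16:23981068-23981610) it scored 32.5 and 21.2, and at Irs2 (chr8:11088908-11089270, intergenic, -80660 bp from the TSS) 22.3 and 26.3. No p65 peak was listed at these 3 regions in the 6 other samples, the untreated ones included. At Cdk14 (chr5:5415449-5415762) p65 scored 28.6 and 23.8, at Cd2ap 21.3 and 26.6, at Rapgef5 18.5 and 21.3, and at Itgal, the integrin αL chain of leukocytes, 24.4 and 14.9. The remaining 3 were Gm12250 (22.01 and 15.4, in a 3′ UTR), Fam102a (19.3 and 16.9), and Bcl11a (14.8 and 20.1, 162365 bp from the TSS).

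Of these 10 regions, Irs2, Rapgef5, Gm12250, and Bcl11a had no PU.1, p300, or H3K27Ac peak in any sample of the 1 hr experiment. At Ier2, PU.1 scored 14.5 and 9.63 in untreated samples and 20.9 and 22.4 after 1 hr of IL-4, with p300 but no H3K27Ac peak. At Cdk14, Irs2, Rapgef5, and Bcl11a, RNAPII-pS2 peaks were listed in both ctrl/LPS samples and in no other sample. The scores were 12.2 and 9.68 at Cdk14, 11.9 and 15.5 at Irs2, 8.65 and 11.8 at Rapgef5, and 7.22 and 8.46 at Bcl11a. These are given as values without a test, since a region with peaks in 1 condition only enters the fit described below through that condition.

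p65 was also listed at some lost regions without LPS, in samples that the rule did not use. Of the lost regions, 133 (12.3%) and 125 (11.5%) had a p65 peak in the ctrl/ctrl samples, and 74 (6.83%) and 76 (7.02%) in the IL-4 PT/ctrl samples. At kept regions of middle score the shares were 19.7% and 19.3% in ctrl/ctrl and 24.6% and 23.0% in IL-4 PT/ctrl, and over all regions 17.9% and 17.7% against 20.7% and 19.5%. Thus both IL-4 PT/ctrl samples lay below both ctrl/ctrl samples at the lost regions and above them in the other sets. The number of p65 peaks was 9706 and 9556 in ctrl/ctrl and 11026 and 10253 in IL-4 PT/ctrl. These shares were not tested, and an exact permutation of 2 samples against 2 could not give a p below 0.333.

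A p65 peak in both ctrl/ctrl samples was found at 63 lost regions (5.82%). The intergenic region at Tnfaip3, which encodes the NF-κB feedback inhibitor A20, had p65 scores of 13.6 and 13.9 in ctrl/ctrl, 13.2 and 8.89 in IL-4 PT/ctrl, and 7.02 and 11.2 in ctrl/LPS (chr10:19033659-19034026). It was therefore bound in all 6 samples other than those with IL-4 and LPS together. The region nearest to Atg4c, which encodes an autophagy protease, lay 187342 bp from its TSS. It scored 10.97 and 12.0 in ctrl/ctrl, 9.95 and 8.12 in IL-4 PT/ctrl, and 6.41 and 15.0 in ctrl/LPS. At Gas7, by contrast, p65 scored 12.6 and 11.8 in ctrl/ctrl and 13.4 and 11.4 in ctrl/LPS, with no peak after IL-4.

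RNAPII-pS2 peaks were fewer at the lost regions in the pretreated samples, with and without LPS. An RNAPII-pS2 peak overlapped 406 (37.5%) and 400 (36.9%) of them in ctrl/ctrl, 259 (23.9%) and 259 (23.9%) in IL-4 PT/ctrl, 464 (42.8%) and 475 (43.9%) in ctrl/LPS, and 212 (19.6%) and 213 (19.7%) in IL-4 PT/LPS. The replicates differed by about 1 percentage point, and both pretreated conditions lay below both conditions without pretreatment. The kept regions of middle score stood at 58.6% and 59.1% in ctrl/LPS and at 61.0% and 60.5% in IL-4 PT/LPS, all kept regions at 74.0% and 74.6% against 72.8% and 72.4%, and all 49264 regions at 43.5% and 44.0% against 46.4% and 45.9%. The RNAPII-pS2 lists held between 25838 and 29235 peaks, and the longest were those of IL-4 PT/LPS. The reverse set had the mirror image, with an RNAPII-pS2 peak at 15.1% and 14.8% of its regions in ctrl/LPS and at 36.5% and 36.1% in IL-4 PT/LPS.

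RNAPII-pS5 peaks overlapped 27.4% and 25.7% of the lost regions in ctrl/ctrl, 18.7% and 19.6% in IL-4 PT/ctrl, 17.8% and 20.6% in ctrl/LPS, and 13.3% and 13.0% in IL-4 PT/LPS. At kept regions of middle score the values were 32.1% and 29.6%, 35.8% and 36.0%, 25.5% and 27.3%, and 32.9% and 33.3%, in the same order. The share was thus lower in IL-4 PT/LPS than in ctrl/LPS at the lost regions and higher at the kept regions of similar p65 score. The ctrl/LPS lists were the shortest for RNAPII-pS5, with 14476 and 15349 peaks, against 17826 and 18207 in IL-4 PT/LPS and 19279 to 22149 without LPS.

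**Figure D3:**
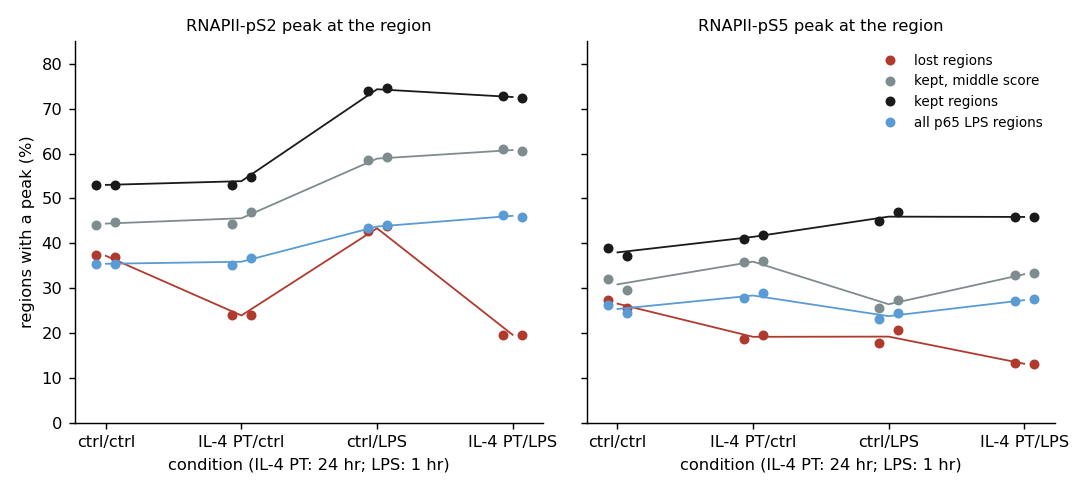
Share of regions with an RNAPII-pS2 (left) or RNAPII-pS5 (right) peak (y axis, percent) in each of the 8 samples (x axis, 4 conditions) for lost regions, kept regions of middle score, kept regions, and all p65 LPS regions; points are replicates and lines join their means. RNAPII-pS2 at lost regions falls from 42.8% and 43.9% in ctrl/LPS to 19.6% and 19.7% in IL-4 PT/LPS, while the other sets change by less than 3 percentage points.

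The lower share of RNAPII-pS2 peaks was mostly found away from promoters. At intergenic lost regions, 40.4% and 44.0% had an RNAPII-pS2 peak in ctrl/LPS and 15.8% and 14.9% in IL-4 PT/LPS, and at intronic lost regions 40.2% and 39.6% against 14.8% and 16.1%. At the 125 promoters, 58.4% and 59.2% had one in ctrl/LPS and 47.2% and 46.4% in IL-4 PT/LPS. RNAPII-pS5 at these promoters had the opposite order, with 38.4% and 38.4% in ctrl/LPS and 48.8% and 48.0% in IL-4 PT/LPS, whereas at intergenic lost regions it went from 16.0% and 21.3% to 8.22% and 6.89%. For RNAPII-pS5, promoters among the kept regions of middle score had the same order as those of the lost regions, with 47.4% and 53.5% against 66.8% and 67.6%, as did promoters among all kept regions, with 54.0% and 54.9% against 64.9% and 64.1%. The order of the RNAPII-pS2 shares was the same among the 973 lost regions with no IL-4 PT/LPS p65 peak within 500 bp (40.6% and 42.2% against 16.5% and 16.4%) and among the 359 with none within 10 kb (37.6% and 37.0% against 14.2% and 14.5%). The difference was wider in the upper 50% of the lost regions by p65 score (47.2% and 48.1% against 15.6% and 15.8%) than in the lower 50% (38.5% and 39.6% against 23.5% and 23.5%), and this difference in width was not tested.

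As a stricter count, 165 lost regions (15.2%) had an RNAPII-pS2 peak in both ctrl/LPS samples and in neither IL-4 PT/LPS sample, and 10 had the reverse. The same counts were 789 and 592 at the 18099 kept regions, and 137 and 189 at the 3353 kept regions of middle score. In the reverse set they were 63 and 1199 of 7568. Over all 49264 regions they were 1910 (3.88%) and 2862 (5.81%). For RNAPII-pS5 they were 60 (5.54%) and 16 (1.48%) at the lost regions, against 2.39% and 4.51% of all regions. Without LPS, 106 lost regions (9.79%) had an RNAPII-pS2 peak in both ctrl/ctrl samples and in neither IL-4 PT/ctrl sample, and 13 (1.20%) had the reverse, against 4.22% and 5.37% of all regions.

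For a test, regions in which 2 or more of the 8 samples had a peak were given the log2 of their highest peak score, and limma was fitted over all of them with a threshold of 0.05 on the adjusted p. A missing peak was set to the lowest score of the antibody's lists. The log2 changes are therefore changes of peak score and not of binding, and those from a peak to none depend on that lowest score. A region without a peak in both samples of a group has no spread there, so that its SE does not hold the uncertainty at the floor. A region that passes the filter only through the group where it is high had to differ, and no p is given for such a region. The counts were therefore also taken over regions with a peak in 2 or more of the 4 samples outside the contrast. The IL-4 effects with and without LPS, and the LPS effect, share control samples and are given side by side.

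RNAPII-pS2 could be tested at 550 of the 1083 lost regions, in a fit added after the shares had been seen. From ctrl/LPS to IL-4 PT/LPS it fell at 151 of them (27.5%) and rose at 6 (1.09%), whereas of all 28794 regions tested 7.19% fell and 12.8% rose. Of the 151, 76 would not have passed the filter without the ctrl/LPS samples, and of the 6, 2 would not without the IL-4 PT/LPS samples. Among the 401 lost regions with peaks outside the contrast, 75 fell (18.7%) and 4 rose (0.998%), against 6.12% and 7.66% of all 20228 such regions. From ctrl/ctrl to IL-4 PT/ctrl it fell at 104 (18.9%) and rose at 9 (1.64%), against 7.97% and 11.6% of all regions tested. With peaks outside the contrast, 61 of 418 fell (14.6%) and 7 rose (1.67%), against 6.47% and 12.1% of all such regions. The IL-4 effect with LPS was lower than that without LPS at 77 lost regions (14.0%) and higher at 38 (6.91%), against 7.74% and 9.47% of all regions tested (interaction term). Of these, 62 and 28 would not have passed the filter without 1 of the 4 conditions. At kept regions of middle score, 5.20% of 2480 tested fell and 12.8% rose between ctrl/LPS and IL-4 PT/LPS. Of the 151 lost regions with lower RNAPII-pS2, 73 were intergenic, 63 were intronic, 9 were promoters, and 4 held a κB match. Only 82 lost regions had a peak in all 8 samples, and when this was required, 3 of them fell and none rose. The counts also moved when single samples were left out.

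**Figure D4:**
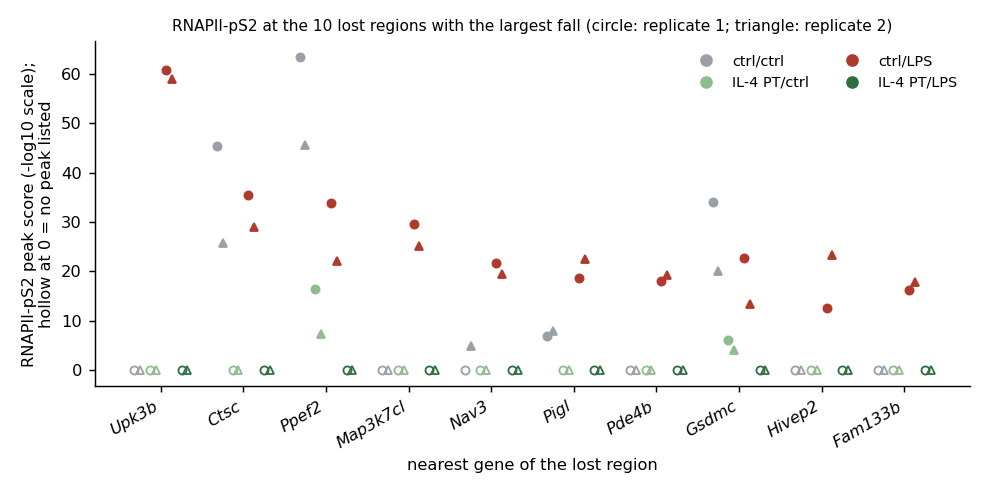
RNAPII-pS2 peak score (y axis, −log10 scale) at the 10 lost regions with the largest fall from ctrl/LPS to IL-4 PT/LPS, named by their nearest gene (x axis), in each of the 8 samples; circles are replicate 1, triangles are replicate 2, and hollow symbols at 0 stand for no peak listed. None of the 10 has a peak in either IL-4 PT/LPS sample, and the highest scores in ctrl/ctrl are those of Ppef2, Ctsc, and Gsdmc.

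The largest difference was at an intergenic region -1687 bp from the TSS of Upk3b (chr5:136036673-136036939), which encodes a urothelial membrane protein. RNAPII-pS2 scored 60.8 and 58.9 there in ctrl/LPS with no peak in the 6 other samples. RNAPII-pS5 scored 21.4 and 24.9 in ctrl/LPS, also with no other peak. Both forms thus entered the fit through ctrl/LPS alone, and no test is given. p65 scored only 9.03 and 4.5 there, and no PU.1, p300, or H3K27Ac peak was listed.

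An intronic region of Ppef2, which encodes a calcium-binding protein phosphatase (chr5:92245411-92245837), differed in that RNAPII-pS2 was highest without LPS. It scored 63.3 and 45.5 in ctrl/ctrl, 16.4 and 7.36 in IL-4 PT/ctrl, and 33.8 and 22.03 in ctrl/LPS, with no peak in IL-4 PT/LPS (log2 change under LPS -4.19 ± 0.47, adjusted p = 0.00155, limma). The IL-4 effect without LPS passed the threshold as well (-2.21 ± 0.47, adjusted p = 0.0199). RNAPII-pS5 had the same order there, with 30.8 and 36.6, 6.14 and 6.01, 19.9 and 23.1, and no peak. This region was also rich in p300, at 54.0 and 145 in untreated samples and 175 and 179 after 1 hr of IL-4.

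An intergenic region at Ctsc, the gene of the lysosomal protease cathepsin C, had RNAPII-pS2 scores of 45.3 and 25.8 in ctrl/ctrl and 35.5 and 29.0 in ctrl/LPS and no peak in either pretreated condition (log2 change under LPS -4.42 ± 0.35, adjusted p = 0.00113, limma). In ctrl/LPS the scores were 29.6 and 25.1 at Map3k7cl, 21.7 and 19.6 at Nav3, and 18.7 and 22.5 at Pigl. They were 12.6 and 23.3 at the region nearest to Hivep2 (209372 bp from its TSS), a zinc finger protein that binds κB-like DNA. At Pde4b, which encodes a cAMP phosphodiesterase induced by LPS in macrophages, they were 18.1 and 19.3. None of these 5 regions had a peak in IL-4 PT/LPS, and all but Pigl passed the filter only through ctrl/LPS. The 6 lost regions called higher for RNAPII-pS2 were nearest to Cgnl1, Troap, Ndufa8, Itga2, Rpf2, and Tti2. At Itga2 it scored 6.61 and 5.19 in IL-4 PT/LPS and at Rpf2 4.39 and 6.6, with no other peak. Both passed the filter only through IL-4 PT/LPS.

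RNAPII-pS5 could be tested at 359 lost regions. From ctrl/LPS to IL-4 PT/LPS it fell at 47 (13.1%) and rose at 16 (4.46%), against 6.45% and 10% of all 20078 regions tested. Of the 47, 24 would not have passed the filter without the ctrl/LPS samples, and of the 16, 4 would not without the IL-4 PT/LPS samples. Among the 289 lost regions with peaks outside the contrast, 23 fell (7.96%) and 12 rose (4.15%), against 5.15% and 7.40% of all such regions. From ctrl/ctrl to IL-4 PT/ctrl it fell at 55 (15.3%) and rose at 9 (2.51%), against 5.29% and 9.07%, and with peaks outside the contrast at 17 of 206 (8.25%) and 4 (1.94%), against 3.18% and 7.81%. With LPS alone, from ctrl/ctrl to ctrl/LPS, it fell at 85 (23.7%) and rose at 44 (12.3%), against 14.3% and 13.7%, and 37 and 27 of these would not have passed the filter without the higher group. The IL-4 effect with LPS was lower than without at 30 lost regions (8.36%) and higher at 41 (11.4%), against 7.84% and 7.63%, and 26 and 30 of these would not have passed the filter without 1 condition. RNAPII-pS2 and RNAPII-pS5 were both called lower under LPS at 22 of the 330 lost regions tested for both (6.67%), against 1.39% of all 19327 regions tested for both. This count was not limited to regions with peaks outside the contrast. It includes regions such as Upk3b that entered both fits through ctrl/LPS alone, so that it is a description only. Among the 53 lost regions with an RNAPII-pS5 peak in all 8 samples, it fell at 3 and rose at 4. The counts also moved when single samples were left out.

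The lost regions with the largest called fall of RNAPII-pS5 were intergenic or intronic and lay near Upk3b, Ppef2, Plk2, H2-Q8, Vav1, Adam3, Tiparp, D14Abb1e, 1500017E21Rik, and Gimap6. RNAPII-pS5 was listed in ctrl/LPS only at Upk3b, Tiparp, and 1500017E21Rik. These entered the fit through ctrl/LPS alone, so that their fall follows from the filter and no test is given. In intron 1 of Vav1, a signaling protein of leukocytes, it scored 12.7 and 5.65 in ctrl/ctrl and 10.8 and 14.1 in ctrl/LPS, with no peak after IL-4 in either condition (-3.24 ± 0.44, adjusted p = 0.00537, limma). The region nearest to Plk2, a stress-induced kinase, lay 208036 bp from its TSS. There RNAPII-pS5 scored 13.4 and 10.4 in ctrl/ctrl and 18.2 and 18.0 in ctrl/LPS, also with no peak after IL-4 (-3.79 ± 0.30, adjusted p = 0.00245, limma). The regions called higher for RNAPII-pS5 with the largest change were mainly promoters, among them those of Bag6, Taf6, Mtg1, Cyp4f13, Zfp64, Casp8ap2, Hps3, and Trmt5. At Bag6 RNAPII-pS5 scored 17.8 and 16.0 in IL-4 PT/LPS with no other peak, so that its rise follows from the filter and no test is given. At the promoter of Taf6, a subunit of TFIID (chr5:138187038-138187548), it scored 10.7 and 7.06 in ctrl/ctrl, 11.4 and 12.4 in IL-4 PT/ctrl, and 16.1 and 14.3 in IL-4 PT/LPS, with no peak in ctrl/LPS (3.26 ± 0.30, adjusted p = 0.00245).

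To see the genes as well as the regions, RNAPII-pS2 was summed over the peaks annotated to each gene and not intergenic. Of the 878 genes nearest to a lost region and with such a peak, 843 could be tested. From ctrl/LPS to IL-4 PT/LPS, 47 fell (5.58%) and 21 rose (2.49%), against 3.07% and 4.44% of all 11640 genes tested. Of these, 11 and 3 would not have passed the filter without the higher group. With peaks outside the contrast, 35 of 771 fell (4.54%) and 17 rose (2.20%), against 2.53% and 3.66% of all such genes. With LPS alone 71 fell (8.42%) and 172 rose (20.4%), against 14.0% and 12.2%. The genes were chosen by p65 peaks under LPS and all genes tested were not, and genes nearest to kept regions were not compared. Of the 71 and 172, 8 and 14 would not have passed the filter without the higher group. With peaks outside the contrast, 62 of 753 fell (8.23%) and 158 rose (21.0%), against 12.5% and 12.9% of all such genes. These counts depend on single samples, since leaving out any 1 of the 4 samples with LPS left none of the genes nearest to a lost region past the threshold in IL-4 PT/LPS against ctrl/LPS.

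Id3, an inhibitor of helix-loop-helix factors, had RNAPII-pS2 sums of 11.1 and 11.1 in ctrl/ctrl, 4.86 and 14.5 in IL-4 PT/ctrl, 32.7 and 26.3 in ctrl/LPS, and no peak and 6.65 in IL-4 PT/LPS (-3.31 ± 0.79, adjusted p = 0.0492, limma). The values of ctrl/LPS lay above all other samples. Med31, a Mediator subunit, had sums of 18.6 and 16.8 in ctrl/LPS, 6.05 in 1 IL-4 PT/ctrl sample, and no peak in the other samples. The other genes with the largest fall were Ppef2, Nav3, Adam3, Emr4, Lilra5, 4930474N09Rik, Gm10640, and Arhgef19. Of the genes named here, Med31, Nav3, and Arhgef19 passed the filter only through ctrl/LPS, where they were high, and no test is given for them.

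Slamf1, a receptor of the SLAM family on leukocytes, was among the genes that rose, with sums of 15.2 and 13.1 in IL-4 PT/ctrl, 42.3 and 29.2 in IL-4 PT/LPS, and no peak without IL-4 (4.62 ± 0.48, adjusted p = 0.01001). Tifa, an adaptor that links TRAF6 to NF-κB, had sums of 11.5 and 11.3 in ctrl/ctrl, 6.70 and 6.95 in IL-4 PT/ctrl, no peak and 4.88 in ctrl/LPS, and 28.5 and 21.4 in IL-4 PT/LPS (3.21 ± 0.63, adjusted p = 0.0282). Thus a lost p65 region did not always come with lower RNAPII-pS2 at its nearest gene. Slamf1 and Tifa also had 2 and 3 kept regions.

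Genes of the Toll-like and NOD-like receptor pathway, the sensors and adaptors that detect microbial products, were nearest to 13 lost regions (1.20%), against 0.442% of the kept regions, 0.239% of the kept regions of middle score, and 0.376% of all regions. The regions belong to 9 of the 32 genes on the list. The receptors among them were Tlr7 with 3 lost regions, Tlr5 with 2, Tlr2, Tlr13, and Nod1, and the adaptors and kinases were Irak2 with 2, Irak4, Traf3, and Traf6. RNAPII-pS2 could be tested at 11 of the 13 and was called lower at 1 (against 7.19% of all regions), and RNAPII-pS5 could be tested at 8 and was called lower at 1 (against 6.45%). The count rests on few regions, and 3 of them belong to 1 gene.

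At Tlr5, the flagellin receptor, the intergenic region at chr1:182951339-182951725 had RNAPII-pS5 scores of 7.22 and 8.42 in ctrl/LPS and no other peak, so that no test is given. In the 3′ UTR of Traf6, an E3 ubiquitin ligase downstream of Toll-like receptors, RNAPII-pS2 scored 5.96 and 6.36 in ctrl/ctrl and 3.65 and 3.86 in ctrl/LPS and was not listed after IL-4 (-1.33 ± 0.27, adjusted p = 0.0174, limma). The 2 intronic regions of Irak2, a kinase that prolongs Toll-like receptor signaling, had another pattern. RNAPII-pS2 scored 11.7 and 5.68 at the first (chr6:113659662-113659960) and 4.14 and 4.76 at the other in ctrl/ctrl, with no peak in the 3 other conditions, LPS included.

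At Tlr2, the receptor of bacterial lipopeptides, the intergenic region at chr3:83812123-83812341 had p65 scores of 3.27 and 5.99 in ctrl/LPS. RNAPII-pS2 scored 12.3 and 10.5 there in ctrl/ctrl and was not listed in the 3 other conditions. PU.1 (37.3 and 38.4 untreated, 83.5 and 59.1 after 1 hr of IL-4), p300, and H3K27Ac were listed there in all 4 samples. The 3 lost regions of Tlr7 had p65 scores of 5.73 and 10.7, 3 and 6.33, and 6.01 and 2.92, and no RNAPII change from ctrl/LPS to IL-4 PT/LPS passed the threshold at the 2 that could be tested.

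Inflammatory cytokines and chemokines were nearest to 6 lost regions (0.554%), against 0.386% of all regions, namely Ccl2, Ccl4, Ccl9, Csf3, Il12b, and Il1a. RNAPII-pS5 fell at 1 of 5 tested (against 6.45% of all regions) and RNAPII-pS2 at none of 6 (against 7.19%). At Ccl4, a chemokine for monocytes and T cells, RNAPII-pS5 scored 3.67 and 13.5 in ctrl/ctrl and 8.07 and 8.23 in ctrl/LPS and was not listed after IL-4 (-2.64 ± 0.63, adjusted p = 0.0381, limma). At the end of Il12b, the p40 subunit of IL-12 and IL-23, RNAPII-pS2 scored 20.6 and 21.5 in ctrl/ctrl, 10.3 and 21.2 in IL-4 PT/ctrl, 10.01 and 8.99 in ctrl/LPS, and 3.76 and 5.14 in IL-4 PT/LPS. The IL-4 PT/LPS samples were the lowest, but the change missed the threshold (-1.003 ± 0.36, adjusted p = 0.114).

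NF-κB subunits and regulators were nearest to 4 lost regions (0.369%, against 0.432% of all regions), at Ikbke, Tnfaip3, and Nfkbiz with 2. The Ikbke region lay -81485 bp from its TSS. At 1 of the Nfkbiz regions (chr16:55851246-55851527), which encodes the nuclear IκBζ, RNAPII-pS2 scored 10.96 and 7.22 in ctrl/LPS and had no other peak. At the other it scored 5.27 and 11.7 in ctrl/LPS and 8.83 and 6.73 in IL-4 PT/LPS (0.08 ± 0.47, adjusted p = 0.937, limma). Interferon response genes were nearest to 3 lost regions (0.277%, against 0.193% of all regions), at Ifih1, Irf8, and Oasl2. None of 12 C-type lectin and Fc receptor genes had one, and they were nearest to only 53 of all 49264 regions (0.108%).

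Genes of alternative activation were nearest to 6 lost regions (0.554%, against 0.470% of the kept regions, 0.477% of those of middle score, and 0.414% of all regions), at Bcl6 with 3, Ccl17, Pdcd1lg2, and Pparg. Pdcd1lg2 encodes PD-L2, a ligand of PD-1 induced by IL-4, and its lost region lay at chr19:29402870-29403428, -7726 bp from the TSS. p65 scored 8.30 and 7.10 there in ctrl/LPS and 3.74 in 1 IL-4 PT/ctrl sample. RNAPII-pS5 was listed only in ctrl/LPS (5.63 and 6.31), and RNAPII-pS2 scored 9.52 and 9.39 in ctrl/LPS and 3.12 in 1 IL-4 PT/LPS sample. Both forms entered the fit through ctrl/LPS, and no test is given. In the 1 hr experiment the same region gained p300, from 15.1 and 24.2 to 121 and 134, and H3K27Ac signal, from 30.7 and 26.2 to 146 and 140. The region thus had more p300 and acetylation after 1 hr of IL-4 and no p65 after 24 hr of IL-4 and LPS.

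The study's own gene lists were compared as shares of the nearest genes. It chose the IL-4 lists from RNA over a time course of IL-4 alone. The LPS lists came from RNA after a longer exposure to LPS than here, with and without IL-4 pretreatment. The lists rest on the same kind of cells and stimuli and are thus not independent evidence. Genes induced by IL-4 were nearest to 68 lost regions (6.28%), against 10.1% of all regions, 10.9% of the kept regions, and 11.01% of those of middle score. Genes repressed by IL-4 were nearest to 95 (8.77% against 7.19% of all and 8.46% of the kept regions). LPS-induced genes that IL-4 attenuated were nearest to 90 (8.31% against 7.32% of all and 9.69% of the kept regions), LPS-induced genes insensitive to IL-4 to 78 (7.202% against 7.30% and 9.30%), and LPS-induced genes that IL-4 increased to 12 (1.11% against 1.82% and 2.20%). At kept regions of middle score, genes repressed by IL-4 stood at 6.74%. The attenuated, insensitive, and increased genes stood there at 6.71%, 7.07%, and 1.52%. For attenuated genes the lost regions thus lay above this set and below all kept regions, and this was not tested.

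Without LPS, the lost regions had fewer peaks of each of the other antibodies than kept regions. In any of the 4 samples of the 1 hr experiment, p300 overlapped 73.2% of the lost regions, 84.4% of the kept regions of middle score, and 75.9% of all regions. PU.1 overlapped 61.1%, 66.5%, and 56.6%, H3K27Ac 42.8%, 54.4%, and 44.4%, HDAC1 46.3%, 57.5%, and 46.9%, HDAC2 45.3%, 55.9%, and 45.8%, and HDAC3 26.7%, 35.9%, and 28.8%. RNAPII-pS5 overlapped 44.0%, 57.0%, and 46.9%, and RNAPII-pS2 19.0%, 26.8%, and 23.2%. None of PU.1, p300, and H3K27Ac was found at 243 lost regions (22.4%), against 13.6% of the kept regions of middle score, and all 3 were found at 372 (34.3%), against 45.2%. The lost regions thus stood below kept regions of similar p65 score for all 8 antibodies, and above all regions for PU.1 only. They were also narrower than those kept regions (median 321 against 444 bp). A wider region can overlap a peak more easily, and the shares were not adjusted for width. For RNAPII-pS2 at 1 hr, peak names within the lists and the labels give opposite treatments, so that the treatments were not compared there.

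**Figure D5:**
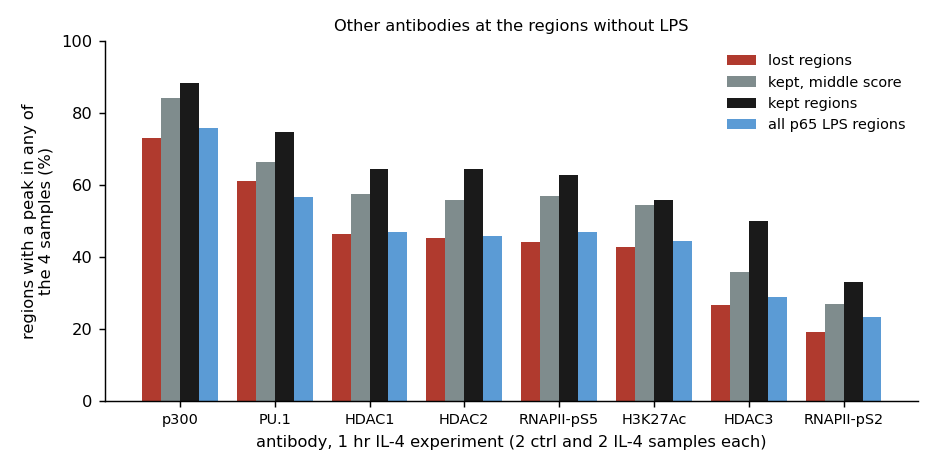
Share of regions (y axis, percent) with a peak in any of the 4 samples of the 1 hr experiment, by antibody (x axis), for lost regions, kept regions of middle score, kept regions, and all p65 LPS regions. The bars of the lost regions are below those of both kept sets for each antibody, from 73.2% for p300 to 19.0% for RNAPII-pS2.

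The effect of 1 hr of IL-4 on PU.1, p300, and H3K27Ac was tested in the same way, with 2 samples against 2. PU.1 could be tested at 588 lost regions, and limma called none lower and none higher, against 0.0123% lower and 0.373% higher of 24393 regions tested. At an unadjusted p of at most 0.05 (limma), 31 of the 588 lost regions were lower and 21 higher, against 4.59% and 6.86% of all regions tested. p300 could be tested at 741, and fell at 52 (7.02%) and rose at 53 (7.15%), against 7.87% and 11.5% of 35002 regions. H3K27Ac could be tested at 431, and fell at 96 (22.3%) and rose at 71 (16.5%), against 25.4% and 21.9% of 20250 regions. Of these calls, 5 and 16 for p300 and 8 and 10 for H3K27Ac were at regions that would not have passed the filter without the higher group. The p300 and H3K27Ac counts depend on the centring of the samples, and the p300 list of untreated replicate 1 had 44787 peaks, against 66710 to 69360 in the 3 others. For p300, centring moved the median change of all regions by -0.70 on the log2 scale. Uncentred, 118 lost regions fell and 56 rose for H3K27Ac, against 29.1% and 18.4% of all regions tested. Without centring, 1 lost region fell and 16 rose for p300, against 0.0771% and 4.21% of all regions tested. The p300 counts also changed without the list of untreated replicate 1.

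The labelled cell type was checked with RNAPII-pS5 peaks of the pretreatment experiment. The planned measure, a promoter peak in every sample, was met by 0 of 8 macrophage markers and 0 of 12 markers of other cells. No sample had a promoter peak at 5 of the 8 and at all of the 12. Counting any peak annotated to a gene, distal ones included, each of the 8 macrophage markers had one in all 8 samples. Csf1r, Itgam, and Cd68 are among them. Of 11 markers with a symbol in the files, of lymphoid, epithelial, endothelial, and connective tissue cells and of granulocyte precursors, 2 (Ms4a1 and Pecam1) had a peak in all 8 samples and 6 had none in any sample. Only 1 lost region was nearest to such a marker, at Ms4a1, where RNAPII-pS5 scored 7.23 and 7.93 in ctrl/LPS with no other peak, and its part in the results was not tested. Replicates shared no identical p65 peak, and 63.7% to 83.3% of the peaks of replicate 1 were overlapped by a peak of replicate 2.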

How the data were processed

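The authors mapped reads to mm10 and deposited peak lists per sample. The submitters' processing notes name BWA 0.7.10, SAMtools 0.1.19, HOMER 4.2 and MACS2 2.0.10. The MACS2 lists, as deposited, hold a score that was read as the −log10 of a q- or p-value (lowest 1.3, below the q cut-off of 2 on this scale in the methods), and the deposited HOMER lists of H3K27Ac hold a normalized signal per peak. No input control is stated, depth is unknown, and libraries were made with either of 2 kits that are not assigned to samples. The labels give HDAC3 and H3K27Ac the same antibody number. The nearest gene, location and TSS distance are the authors' annotation.

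Regions, sets and shares were computed in Python 3.11.15 (pandas 2.3.3, pysam 0.24.0, samtools 1.23.1). A region took the highest overlapping score and a gene the summed scores of its peaks that were not intergenic. Missing peaks were set to the lowest score, log2 values were centred on the median of the features present in every sample, and features present in 2 or more samples were fitted with limma 3.58.1 (R 4.3.3, trended variance) over all 8 or 4 samples of an experiment, with Benjamini-Hochberg adjusted p of at most 0.05. The scripts were tested on simulated data.

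Named were the 10 lost regions with the highest ctrl/LPS p65 score, up to 10 largest called falls and rises per RNAPII test, 5 genes with the most lost regions (ties in alphabetical order), the 5 strongest of those with basal p65, and lost regions at listed genes or at enhancers the study names. Same-numbered replicates did not deviate together (correlations of -0.017 to 0.082), and the numbers were not used to pair samples. These correlations cannot show whether same-numbered samples shared a mouse or a culture. The regions and gene lists were chosen with earlier results of these data known. The RNAPII-pS2 fit over regions, with its named regions, the counts over features with peaks outside the contrast, and the kept set of middle score were added after seeing the data.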

Additional observations from a re-analysis of the deposited data

Results flagged for a closer look

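The effect of IL-4 pretreatment with LPS differed from its effect without LPS by limma's interaction term at a number of lost regions. For RNAPII-pS2, 77 lost regions had a lower IL-4 effect with LPS than without, and 38 had a higher one (14.0% and 6.91% of 550 tested, against 7.74% and 9.47% of all regions tested). For RNAPII-pS5 the counts were 30 and 41 (8.36% and 11.4% of 359 tested, against 7.84% and 7.63%). Of these, 62 and 28 for RNAPII-pS2 and 26 and 30 for RNAPII-pS5 would not have passed the filter on peaks without 1 of the 4 conditions.

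Among the named regions, the log2 difference of the 2 IL-4 effects on RNAPII-pS2 was -3.25 at Irs2 and -2.93 at Cdk14. It was -2.83 at Rapgef5 and -2.46 at Bcl11a and -2.65 at the Nfkbiz region at chr16:55851246-55851527. These 5 regions had RNAPII-pS2 peaks in the ctrl/LPS samples only. The difference was positive at Tlr2 (3.06) and at both regions of Irak2 (2.58 and 1.71), where RNAPII-pS2 was listed in the ctrl/ctrl samples only. For RNAPII-pS5 it was -2.57 at Tlr5 and -2.18 at Pdcd1lg2, with peaks in ctrl/LPS only. Each of these regions entered the fit through 1 condition and its values run from a listed peak to the floor, so that the differences follow from the filter and the floor and are given with no p. The Pdcd1lg2 region had peaks of RNAPII-pS2 in 1 IL-4 PT/LPS sample as well.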

How the results depend on the processing

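All values below are counts of lost regions (or of genes nearest to them), given as lower and then higher where there are 2. The number of lost regions was 702 with the upper 50% of every p65 list and 87 with the upper 50% of the ctrl/LPS lists alone, and ran from 1798 to 2973 without 1 of the 4 samples. A κB match stood in 3.88% of windows of 100 bp.

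The counts rest mainly on the treatment of missing peaks. With features that had a peak in every sample, RNAPII-pS2 at regions gave 3 and 0 from ctrl/LPS to IL-4 PT/LPS, 8 and 0 from ctrl/ctrl to IL-4 PT/ctrl, and 1 and 0 for the interaction. RNAPII-pS5 gave 3 and 4, 2 and 2, and 0 and 2 in the same order, and 12 and 11 for LPS alone, and PU.1 gave 1 higher. These fits hold fewer features, with 82 lost regions for RNAPII-pS2 and 53 for RNAPII-pS5. With a filter on the 4 samples outside the contrast, added after seeing the data, RNAPII-pS2 at regions fell at 75 with LPS and 61 without. RNAPII-pS5 then fell at 23 with LPS and gave 17 and 4 without. For LPS alone it gave 48 and 17 of 202 tested (23.8% and 8.42%), against 13.2% and 13.1% of all such regions. With a floor 4 times as high, RNAPII-pS2 fell at 64 with LPS and 60 without, with 11 and 7 for the interaction. RNAPII-pS5 then gave 26 and 7 with LPS, 25 and 2 without, and 1 and 2 for the interaction, and 41 lower for LPS alone, while PU.1 gave 3 higher and H3K27Ac 166 higher. Without centring, p300 gave 1 and 16, against 0.0771% and 4.21% of all regions. Centring moved the median of all regions by -0.14 for RNAPII-pS5 and 0.11 for RNAPII-pS2 from ctrl/LPS to IL-4 PT/LPS, and by -0.39 for PU.1.

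At an unadjusted p of at most 0.05, RNAPII-pS2 at regions gave 18 higher with LPS, 21 higher without, and 61 higher for the interaction. RNAPII-pS5 gave 38 higher with LPS, 84 and 21 without, and 50 and 64 for the interaction. RNAPII-pS2 at genes gave 146 and 65, and 135 lower for LPS alone. PU.1 gave 31 and 21 (against 4.59% and 6.86% of all regions) and p300 101 and 87 (against 15.2% and 17.3%).

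With the replicate number as a block (replicate block), RNAPII-pS2 fell at 30 genes and PU.1 rose at 2 regions, and no other count moved by more than 1.5 times. The numbers are shared labels, and whether they pair samples is not stated.

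Without 1 sample at a time, RNAPII-pS2 at regions ran from 64 to 154 lower and 0 to 9 higher with LPS, 41 to 111 and 4 to 11 without, and 9 to 61 and 3 to 32 for the interaction. RNAPII-pS5 ran from 17 to 50 and 6 to 20 with LPS, 13 to 54 and 1 to 13 without, 0 to 13 and 0 to 24 for the interaction, and 40 to 95 and 15 to 43 for LPS alone. RNAPII-pS2 at genes ran from 0 to 46 and 0 to 18, and from 28 to 77 and 81 to 178 for LPS alone. PU.1 ran from 0 to 1 and 0 to 11, p300 from 31 to 108 and 30 to 134, and H3K27Ac from 60 to 88 and 41 to 53. A lone sample left in a group was assumed to vary like the others. The cause of these changes was not tested beyond the construction of each alternative. With unknown depth, a missing peak does not show that binding was absent, and 2 samples a group limit every test.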
